A study of Mus musculus with 14 samples.

Results

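*Fam180a* was followed across mouse mammary tumors, as 1 gene of the 56414 listed in the bulk RNA-seq table. Among earlier results of these data it had stood out as lower in nicotinamide (NAM)-treated tumors of both models, and it was selected on that contrast. The difference with NAM is therefore described here with no test. *Fam180a* encodes a small protein predicted to be secreted, whose function is largely unknown. Its paralog *Fam180b* was not analysed here.

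All tumors grew in female C57Bl/6 mice. M/D-driven tumors arose in females that were 6 to 9 weeks old when they received a 50 mg pellet of medroxyprogesterone acetate (MPA, a synthetic progestin), followed by oral 7,12-dimethylbenz[a]anthracene (DMBA, a carcinogen, 200 µL at 5 mg per mL for each gavage). AT3 tumors arose from 1000000 cells of AT3, a mouse mammary carcinoma line, injected under the skin, so that all AT3 tumors stem from 1 line. Treatment was assigned once tumors measured 0.25 cm2. Untreated tumors (4 M/D, 3 AT3) were compared with tumors of mice given 0.5% NAM, a form of vitamin B3, in the drinking water for 10 days (4 M/D, 3 AT3). Values are counts divided by a size factor of each tumor (normalized counts), from 40936868 to 84178009 reads per tumor, and the models had been normalized apart. Nothing in the labels states that mice with the same replicate number belong together.

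The only M/D tumor of experiment 2, NAM-treated tumor 1, stood apart from the other M/D tumors, which were of experiment 1. Its summed normalized count over 10 luminal epithelial markers (among them *Epcam*, *Krt8* and *Krt18*) was 7920, against 112542 to 376713 in the other 7 M/D tumors. The sum over 4 B cell markers was 171224 in this tumor, against 96.9 to 1579 in the others. The epithelial markers of a mammary tumor were thus scarce in this library, and values without it are given where it matters. None of the 10 luminal epithelial markers was at 0 in any of the 14 tumors.

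*Fam180a* (GSMG0032868) lies on the minus strand of chromosome 6 of mm10, from 35312668 to 35326141. GENCODE M21 gives it 1 transcript of 1606 bases in 3 exons, with the coding region spread over all of them (519 bases) and a 3′ untranslated region in the last exon. No other row of the table overlapped it. The stretch just before its start site is shown so that it can be set beside the genes that follow *Fam180a* from tumor to tumor. It spans chr6:35326142-35326391 (RefSeq, GRCm38.p6, minus strand, 5′ to 3′). Capitals mark the letters TGANTCA, to which AP-1 factors such as Fos and Jun can bind.

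Fam180a, 250 bases before the start site: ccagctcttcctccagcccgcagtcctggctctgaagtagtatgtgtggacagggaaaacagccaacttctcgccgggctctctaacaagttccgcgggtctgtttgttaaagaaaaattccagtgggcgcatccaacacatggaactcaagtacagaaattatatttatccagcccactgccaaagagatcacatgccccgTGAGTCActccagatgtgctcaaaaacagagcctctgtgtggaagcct

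The match began 48 bases before the start site, and 6.75% of 32851 such windows held these letters. The E-box letters CANNTG occurred 3 times, 113, 59 and 38 bases before the start site, and were present in 66.2% of windows. Other letters searched on both strands were not in this window. These were TATAAA, the TATA box, which 12.4% of windows held. The CCAAT box, written CCAAT, was in 33.8% of windows. The GC box, written GGGCGG, was in 32.7%. The core letters AGAACA, to which progesterone and glucocorticoid receptors can bind, were in 16.1%. Guanine and cytosine made up 50.4% of the window, against a median of 52.4%. No binding was measured here, and a match is not a binding site.

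In M/D-driven tumors, the normalized count of *Fam180a* was 1022, 1370, 783.2 and 589.1 in untreated tumors 1 to 4. It was 78.09, 82.81, 71.8 and 70.59 in NAM-treated tumors 1 to 4. The groups did not overlap, and the lowest untreated tumor stood 7.11-fold above the highest NAM-treated tumor. Means were 941.1 ± 336.4 (SD, n = 4) and 75.82 ± 5.701 (SD, n = 4), which gave a difference of −3.55 on the log2(normalized count + 1) scale (standard error 0.31), an 11.7-fold lower level with NAM. Within experiment 1, that is without NAM-treated tumor 1, the difference was −3.56. Bulk RNA-seq cannot tell fewer cells that express *Fam180a* from less *Fam180a* RNA per cell.

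In AT3 tumors, *Fam180a* was at 1110, 987.9 and 911.6 normalized counts in untreated tumors 1 to 3. It was at 268.5, 356.5 and 153.7 in NAM-treated tumors 1 to 3. Here too the groups did not overlap, and the lowest untreated tumor stood 2.56-fold above the highest NAM-treated tumor. Means were 1003 ± 100.1 (SD, n = 3) and 259.6 ± 101.7 (SD, n = 3), a difference of −2.02 on the log2 scale (standard error 0.32), or 4.07-fold lower with NAM. Whether the differences of both models differ from each other was not tested, since the gene was chosen on them.

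Fold changes in AT3 tumors followed transcript length, with a Spearman correlation of 0.59 across 16391 genes, which are not independent replicates. The same correlation was −0.04 across 18418 genes in M/D tumors. The 1808 genes with a transcript length near that of *Fam180a* (within 0.25 on the log2 scale) had a median difference of −0.38 with NAM in AT3 tumors, against −0.05 over all genes tested. With the trend of each tumor with transcript length and GC content removed, an alternative chosen after seeing the data, *Fam180a* differed by −1.54 in AT3 and by −3.40 in M/D tumors.

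With limma, at an unadjusted p no higher than 0.05 and a fold change no lower than 1.5 (the cutoffs of the study's methods, which used DESeq2), 3.19% of 21700 genes tested in M/D tumors were lower with NAM and 3.03% higher. By DESeq2 on the recovered reads, 2095 genes were called in M/D tumors, against 1350 by limma. The shares by limma of 19281 genes in AT3 tumors were 10.9% and 12.2%. Groups that did not overlap, with NAM lower, occurred for 2% of genes in M/D and 11% in AT3 tumors. Ordered from the lowest fold change, *Fam180a* ranked 301 in M/D and 263 in AT3 tumors. As the gene was selected on this contrast, these figures only place it among the others.

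**Figure D1:**
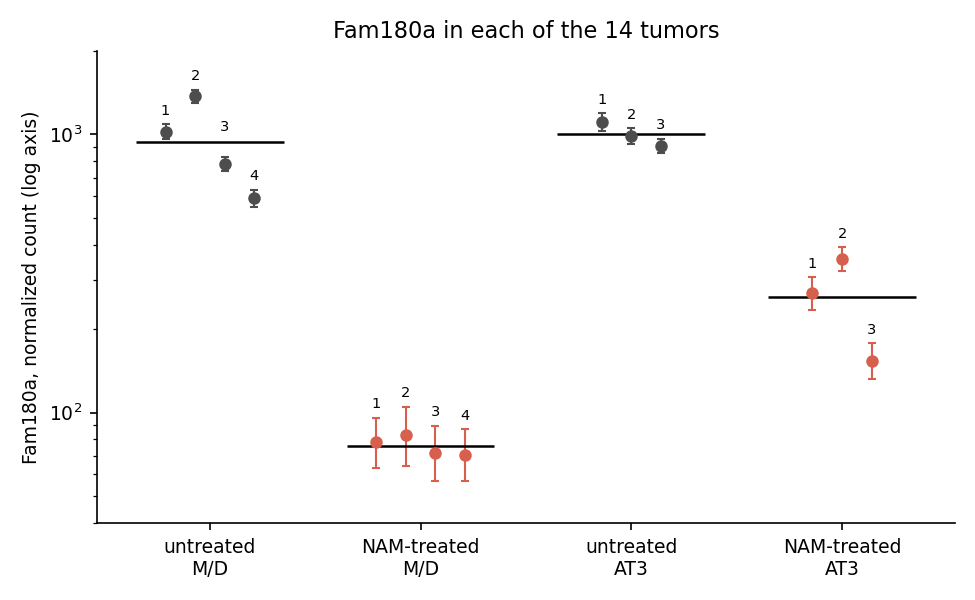
Normalized count of *Fam180a* (vertical log axis) in each tumor by group, with the tumor number above each point. Bars are 95% Poisson intervals of the reads, which cover counting error only, and horizontal lines are group means. The NAM-treated M/D tumors sit between 70.59 and 82.81, and the untreated tumors of both models lie above every NAM-treated tumor. The M/D and AT3 tumors were normalized apart.

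The spread between tumors also differed. In NAM-treated M/D tumors *Fam180a* rested on 68 to 92 reads per tumor, and its coefficient of variation was 7.52%, under the 11.2% that counting alone gives. Among 1634 genes of like level in this group (mean within 0.5 on the log2 scale) the median coefficient of variation was 67.7%, and 10 genes, *Fam180a* included, were at or under 7.52%. Over the 3 tumors of experiment 1 it was 8.97%, with a median of 53% for genes of like level. Of 1537 such genes, 44 (2.86%) were at or under 8.97%. The 4 NAM-treated M/D tumors could thus not be told apart at this depth. Untreated M/D tumors were more variable, with a coefficient of variation of 35.7% against 3.19% from counting alone. In AT3 tumors the order was inverted, with 9.98% in untreated and 39.2% in NAM-treated tumors. These coefficients were not tested against each other. As *Fam180a* was selected on values that include these tumors, its low spread with NAM is described only.

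In untreated tumors, *Fam180a* lay above the middle of the range of tested genes. Per base of transcript, its normalized count exceeded that of 59.1% to 75.5% of tested genes in untreated M/D tumors and of 70.8% to 73.7% in untreated AT3 tumors. In NAM-treated tumors it exceeded that of 27.9% to 34.2% of genes in M/D and of 38.8% to 52.9% in AT3 tumors. The transcript was detected in all 14 tumors.

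Untreated M/D and untreated AT3 tumors were then compared, as the gene had not been chosen on this difference. With reads of all tumors scaled together by TMM factors, *Fam180a* was at 17.3, 23.4, 13.2 and 9.74 counts scaled to the total of each tumor (CPM) in untreated M/D tumors. It was at 21.6, 19.7 and 18.4 CPM in untreated AT3 tumors, so that the ranges overlapped. The difference, M/D minus AT3, was −0.39 on the log2 scale with all 14 tumors in 1 fit. With TMM factors of the untreated tumors alone it was −0.45 (standard error 0.29, 95% interval −1.12 to 0.22). It did not pass the test (adjusted p = 0.23 by limma over 21677 genes). By the same test, 51.2% of genes differed between the models. The interval still allows *Fam180a* to be from 0.461-fold to 1.17-fold of its AT3 level in M/D tumors. Tumor model and experiment cannot be told apart here. With reads of all 14 tumors scaled together, NAM-treated M/D tumors were at 1.13 to 1.39 and NAM-treated AT3 tumors at 3.26 to 7.59 CPM. The groups were thus ordered, from the lowest, as NAM-treated M/D, NAM-treated AT3, untreated M/D and untreated AT3, with overlap only between the untreated groups.

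The genes beside *Fam180a* on chromosome 6 were read from the same fits. Of 22 named genes that start within 1 Mb, 17 were tested in M/D and 13 in AT3 tumors. In M/D tumors none was called by limma in either direction, and none had an unadjusted p under 0.05. Over all genes the shares were 3.19% lower and 3.03% higher, so a count of 0 among 17 is near the background. By edgeR 1 was called (*Akr1b7*, an aldo-keto reductase, lower) and by DESeq2 3 (*Akr1b7* and *2010107G12Rik*, lower, and *Agbl3*, a tubulin deglutamylase, higher). Without NAM-treated tumor 2, limma called 3 as lower (*1810058I24Rik*, *Akr1b8* and *Bpgm*), and without untreated tumor 2 the 2 rows of *2010107G12Rik*. *Akr1b7* was lower without untreated tumor 1, and *Agbl3* higher without NAM-treated tumor 3. The median difference of these 17 genes was −0.05 on the log2 scale, against 0.01 over all genes. In AT3 tumors 3 of 13 were higher with NAM and none was lower, beside 12.2% and 10.9% of all genes, with a median of −0.32. These were *Cald1* (caldesmon, which regulates actin filaments, 0.67), *Cnot4* (a ubiquitin ligase of the deadenylation complex, 0.71) and *Nup205* (a nuclear pore scaffold, 0.64), with adjusted p values of 0.2, 0.19 and 0.2 by limma, respectively. With limma, none of these was called with values rescaled by the upper quartile, where 4 others were lower (*1810058I24Rik*, *Agbl3*, *Akr1b10* and *Akr1b8*). This scaling moved the median difference of all genes from −0.05 to −0.21 in AT3 and from 0.01 to 0.18 in M/D tumors. With the length and GC trend removed, *Cnot4* alone of these was called, and *Agbl3* was lower. *Agbl3* was also called lower, beside these 3, with the replicate number as a block. Without untreated tumor 1, untreated tumor 3 or NAM-treated tumor 2 no neighbour was called in AT3 tumors, and without NAM-treated tumor 3 only *Akr1b8* was, as lower. Without untreated tumor 2, 5 neighbours were called, of which *1810058I24Rik*, *Agbl3* and *Tmem140* were lower and *Cnot4* and *Nup205* higher. Without NAM-treated tumor 1, 5 were called as well, with *1810058I24Rik* and *Agbl3* lower and *Cald1*, *Cnot4* and *Nup205* higher.

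Among the 6 nearest tested genes, *Slc13a4* (a sodium-dependent sulfate transporter), whose start lies 44.7 kb away, was low, with means of 15.67 in untreated and 15.6 in NAM-treated M/D tumors. It was not tested in AT3 tumors, where it reached at most 9.138. *1810058I24Rik* differed by −0.39 in M/D and −0.55 in AT3 tumors. *Nup205* was at 6374 to 10484 in untreated and 6096 to 17300 in NAM-treated M/D tumors, and *Cnot4* at 1262 to 1494 and 1209 to 1467. *Mtpn* (myotrophin), on the other side, differed by 0.10 in M/D and by less than 0.01 in AT3 tumors. The remaining row, *2010107G12Rik*, shares its symbol with another row and was at 2.407 to 28.01 in NAM-treated and 0 to 108.9 in untreated M/D tumors. In M/D tumors the ranges of all 6 genes overlapped between groups, where those of *Fam180a*, selected on this contrast, were apart. Over all genes tested, groups were apart with NAM lower for only 2% in M/D and 11% in AT3 tumors. The share apart with NAM higher was not counted. In AT3 tumors *Cnot4* did not overlap either, but in the opposite direction, with 466.6, 591.9 and 569.8 in untreated and 605.1, 965.2 and 1190 in NAM-treated tumors, while the ranges of the other 5 overlapped.

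**Figure D2:**
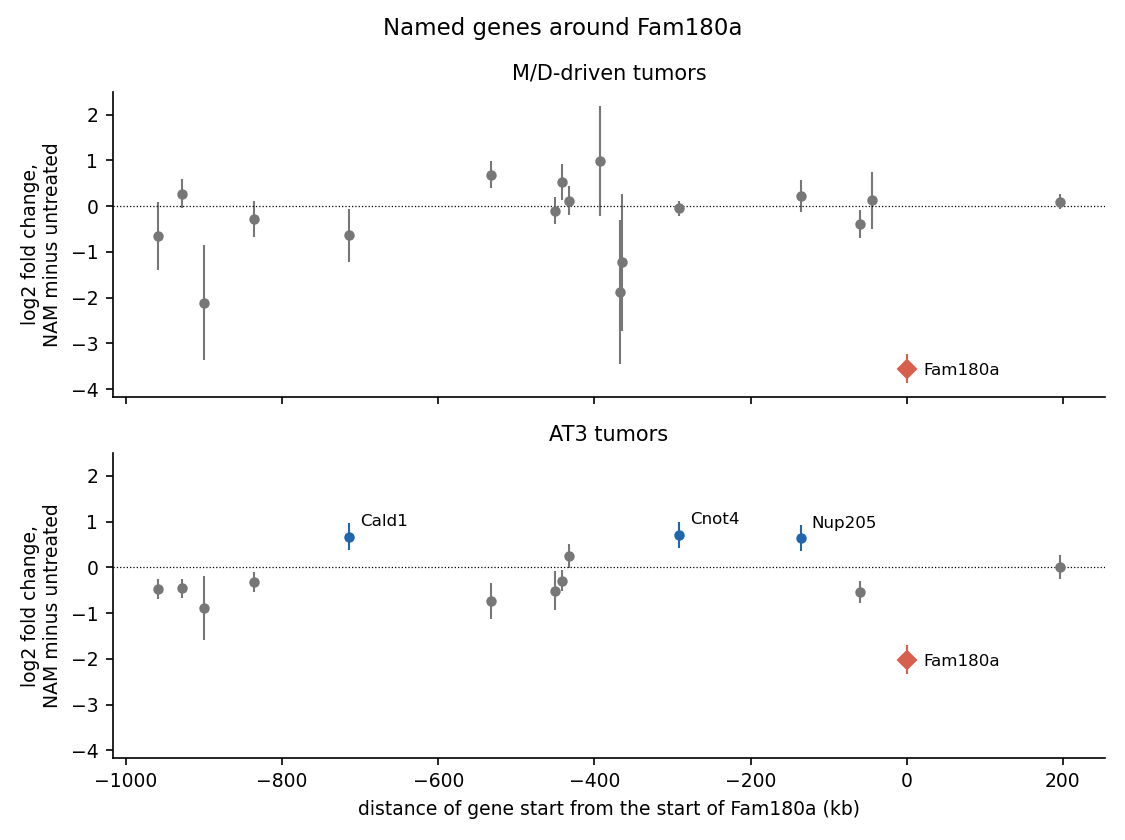
Difference with NAM (log2 scale, NAM minus untreated, bars are standard errors) for each tested named gene within 1 Mb, against the distance of its start from that of *Fam180a*, in M/D-driven (top) and AT3 tumors (bottom). Blue points are genes called by limma. *Fam180a*, the diamond, is at −3.55 and −2.02, and the neighbours range from −2.11 to 0.99 in M/D and from −0.89 to 0.71 in AT3 tumors.

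Which genes rose and fell with *Fam180a* from tumor to tumor was examined by Pearson correlation of log2(normalized count + 1), over the 8 M/D and, apart from these, the 6 AT3 tumors. These correlations are descriptions over few tumors that share libraries, sequencing depth and the NAM contrast. Of 13857 named genes tested in both models, 349 (2.52%) reached r of at least 0.7 in M/D and 2072 (15%) in AT3 tumors. Both conditions were met by 21 genes (0.152%), and no gene reached 0.9 in both. All 21 were lower with NAM in both models, as the shared contrast implies, and 3 of them had groups that did not overlap in both. Over all genes tested, groups apart with NAM lower occurred for 2% in M/D and 11% in AT3 tumors. The share apart in both models was not counted. After the mean of each group was subtracted, none of the 21 kept r of at least 0.7 in both models. The count of 21 rested on single tumors, as it became 42 without untreated M/D tumor 2, 32 without untreated M/D tumor 3, 38 without NAM-treated M/D tumor 1, 159 without NAM-treated M/D tumor 2 and 55 without untreated AT3 tumor 2. At r of at least 0.8 there was none.

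The closest gene was *Aspa*, which encodes the enzyme that cleaves N-acetylaspartate, with r of 0.88 in M/D and 0.80 in AT3 tumors. Its normalized count was 49.09 to 116.3 in untreated and 38.2 to 57.24 in NAM-treated M/D tumors, and 16.25 to 39.88 and 4.957 to 19.44 in AT3 tumors. *Aspa* thus overlapped between groups in both models, and its difference with NAM in M/D tumors, −0.99 on the log2 scale, stands beside −3.55 for *Fam180a*. *Prtn3*, a serine protease of neutrophil granules, followed with r of 0.79 and 0.93 and differences of −1.73 and −1.71. Next came *Mst1* (macrophage-stimulating protein, whose row also carries *Mir7088*, r of 0.78 and 0.88) and *Sdcbp2* (syntenin-2, r of 0.78 and 0.86). *Tnfrsf11b*, the decoy receptor osteoprotegerin that binds RANKL, had r of 0.75 and 0.81 and was at 1652 to 3114 in untreated and 51.78 to 1672 in NAM-treated M/D tumors. The list of 10 was completed by *Rpp38* (a ribonuclease P subunit), *Endod1*, *Abhd11* (a mitochondrial hydrolase), *Ndufa5* (a complex I subunit) and *Arhgdig*, with r of 0.75 to 0.78 in M/D and 0.76 to 0.91 in AT3 tumors.

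**Figure D3:**
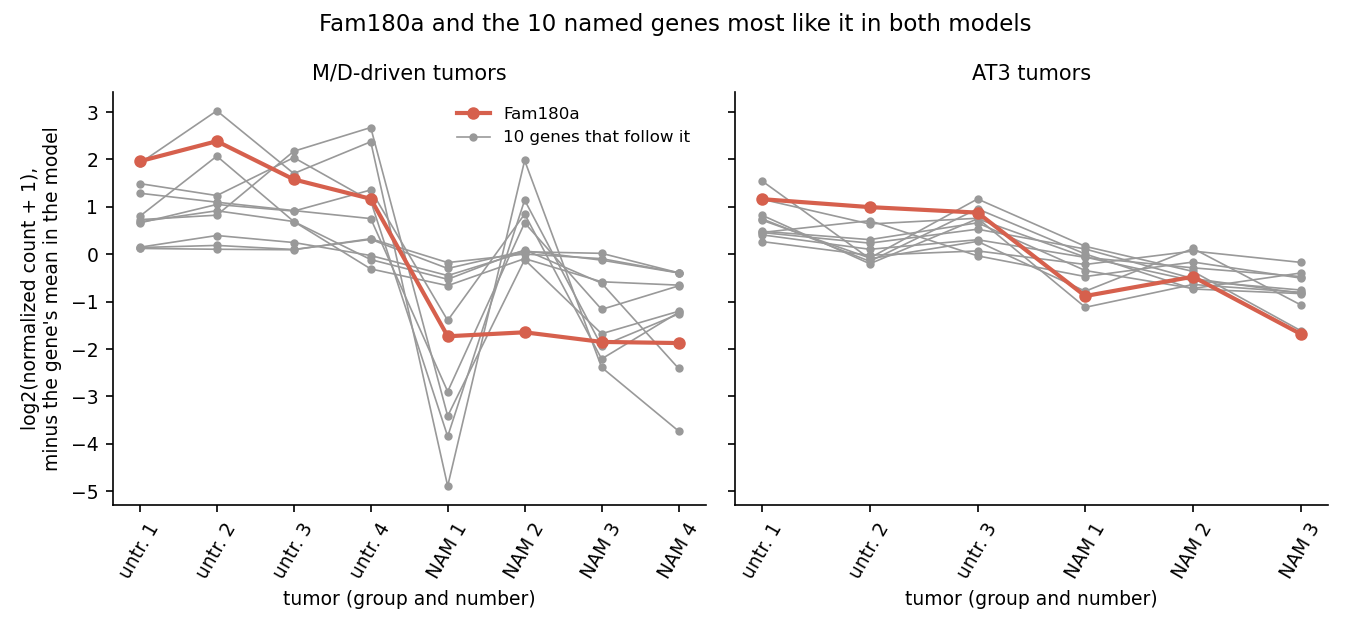
Log2(normalized count + 1) of *Fam180a* (red) and of the 10 named genes most like it in both models (grey), each minus its mean over the tumors of a model, by tumor. *Fam180a* is nearly level across the NAM-treated M/D tumors, while several of the grey genes drop in tumor 1 and stand higher in tumor 2.

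The genes that followed *Fam180a* in a single model behaved otherwise in the other. The 5 highest in M/D tumors were *Vps4b* (an ESCRT ATPase, r of 0.96), *Usp6nl* (a Rab GTPase-activating protein, 0.95), *Faf2* (endoplasmic reticulum-associated degradation, 0.94), *Pi15* (a secreted peptidase inhibitor, 0.94) and *Golim4* (a Golgi membrane protein, 0.93). In AT3 tumors the r of these genes was −0.86, −0.85, −0.73, −0.47 and −0.76. *Pi15* came nearest in size, with 305 to 378.5 in untreated and 13.58 to 79.16 normalized counts in NAM-treated M/D tumors, a difference of −3.81. In AT3 tumors *Pi15* was at 252.3 to 353.6 and 171.3 to 875.7, so that its groups overlapped there.

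In AT3 tumors the 5 highest all had r of 0.99. These were *Gadd45g* (a growth arrest and stress protein), *Syt8* (a synaptotagmin), *Usf2* (an E-box-binding factor), *Wnt4* (a Wnt ligand that progesterone induces in the mammary gland) and *Lypd1*. In M/D tumors their r was 0.45, 0.45, 0.16, −0.06 and 0.12. *Gadd45g* was at 4006 to 4290 in untreated and 1330 to 2025 in NAM-treated AT3 tumors, and kept r of 0.96 with group means subtracted. *Wnt4* was low, at 33.33 to 37.57 and 10.74 to 16.93.

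With group means subtracted, which leaves out the contrast with NAM, 9 named genes (0.0649%) reached r of at least 0.7 in both models. In each model alone, 305 of 13857 (2.2%) reached it in M/D and 303 (2.19%) in AT3 tumors. The M/D value rests mainly on the 4 untreated tumors, as *Fam180a* was nearly level across the NAM-treated ones. The highest were *St6gal1* (a sialyltransferase, 0.90 and 0.87), *Spidr* (a DNA repair scaffold, 0.97 and 0.78) and *BC106179* (0.78 and 0.81). The rows of *St6gal1* and *BC106179* overlap on chromosome 16, so reads of the pair may not be told apart. The next were *Vegfb* (a vascular endothelial growth factor, 0.74 and 0.79), *Wdpcp*, *Stac2*, *Igsf23*, *Thap3* and *Gata4*, and *Ogfr* had 0.76 and 0.68. *Gata4* rested on 0 to 26.79 normalized counts in M/D tumors. For most of these genes the correlation over all tumors was weak or changed sign between models, as for *Vegfb* (−0.27 in M/D, 0.88 in AT3).

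Of 13857 named genes, 23 (0.166%) ran against *Fam180a* in both models, with r of −0.7 or lower in each. This is close to the 21 (0.152%) that followed it in both. The 5 strongest were *Limch1* (which activates nonmuscle myosin, −0.93 and −0.87), *C1qtnf6* (−0.80 and −0.84), *Akap10* (an anchor of protein kinase A, −0.80 and −0.81), *Gramd1b* (−0.78 and −0.87) and *Abcg1* (−0.78 and −0.92). *Gramd1b* and *Abcg1* both move cholesterol out of or between membranes. *Limch1* was at 215 to 445.8 in untreated and 525.4 to 954.6 in NAM-treated M/D tumors, and at 223 to 266 and 309.8 to 433.7 in AT3 tumors. It was thus higher in every NAM-treated tumor, the mirror of *Fam180a*, as such a correlation requires.

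Lastly, *Fam180a* was set beside markers of the cell types that a mammary tumor may hold, in 16 lists. The median r of *Fam180a* over all genes tested was −0.01 in M/D and 0.07 in AT3 tumors. For the luminal epithelial list it was 0.42 in M/D, with all 10 members above 0, and 0.35 in AT3 tumors. None of these 10 genes was called in M/D tumors, and *Krt19* was lower (−1.24) and *Cdh1* higher (0.90) in AT3 tumors. Without NAM-treated tumor 1 the median in M/D tumors was 0.24 and *Cdh1* was called lower. The other 3 NAM-treated M/D tumors had luminal epithelial sums of 124298 to 227834, within the 112542 to 376713 of untreated tumors. *Fam180a* was at 70.59 to 82.81 in these 3 and at 78.09 in tumor 1, whose luminal epithelial sum was 7920.

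Skin and hair markers were the only list with more than 1 member called lower with NAM in M/D tumors. *Krt1* and *Krt10* (keratins of the upper epidermis) and *Lor* (loricrin, of the cornified envelope) were called lower with NAM, by −9.34, −6.72 and −7.40 on the log2 scale (adjusted p = 0.73 for each by limma), as 3 of 5 tested. *Krt25* and *Krt71* were not called, and differed by −2.24 and −1.33 on the log2 scale. Their group means were nevertheless higher with NAM (179.2 to 2141 and 791.7 to 1712). The summed count of this list was 2329 to 536267 in untreated and 156 to 17132 in NAM-treated M/D tumors. The sum of 17132 was that of NAM-treated tumor 2, against 156, 1052 and 201 in tumors 1, 3 and 4. Among untreated tumors the order was the reverse of that of *Fam180a*. *Fam180a* was highest in tumor 2, where the sum was 2329, then 1022 in tumor 1 (154347), 783.2 in tumor 3 (352610) and 589.1 in tumor 4 (536267). With group means subtracted the median r of the list was −0.70. In AT3 tumors the sum was 185 to 610, and none of 4 tested was called.

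Adipocyte markers ran the other way in M/D tumors. *Adipoq* (adiponectin) was 0.85 higher with NAM, with r of −0.90, and *Adrb3* (the beta-3 adrenergic receptor) 1.48 higher, with r of −0.84, as 2 of 8 tested, and both were called without NAM-treated tumor 1 as well. *Klrb1c* (NK1.1, an NK cell receptor, 1 of 10 in the T and NK list) and *Myh4* (a fast muscle myosin, 1 of 6 in the skeletal muscle list) were higher, and *Chad* (chondroadherin, 1 of 7 in the tendon and cartilage list) was lower. No member was called in the other 11 lists, namely luminal epithelial, basal and myoepithelial, fibroblast, pericyte, endothelial, B, macrophage, neutrophil, Schwann cell, cycling and progesterone response. Without NAM-treated tumor 1, *Gzmb* (granzyme B) was called higher as well, and *Krt10*, *Lor* and *Chad* were no longer called. Over all lists, 4 of 113 markers tested were called higher and 4 lower, near the shares of all genes.

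In AT3 tumors 19 of 108 markers were called higher and 11 lower, beside 12.2% higher and 10.9% lower over all genes tested. Among 8 endothelial markers, 5 were higher (among them *Kdr*, *Cdh5*, *Tek* and *Tie1*) and *Egfl7* was lower, and 4 of 6 pericyte markers were higher (*Cspg4*, *Notch3*, *Abcc9* and *Mcam*). The median r of these lists with *Fam180a* was −0.75 and −0.74. Members with r above 0 were 2 of 8 (*Egfl7*, 0.79, and *Emcn*, 0.62) and 1 of 6 (*Kcnj8*, 0.73). *Kdr* (a VEGF receptor) was 1.54 higher on the log2 scale, and *Notch3* (a receptor that pericytes need) 1.48 higher. Of B cell markers *Cd79a* (a subunit of the B cell receptor) was lower (−1.14). The list had a median r of 0.74 and summed counts of 129 to 142 in untreated and 44.6 to 71.7 in NAM-treated tumors. Among 7 genes of progesterone response tested, *Wnt4* (−1.24), *Id4* (−0.98) and *Areg* (−0.93) were lower, and in M/D tumors none of 8 was called. Further calls fell in the basal and myoepithelial (2 higher, 2 lower of 7), fibroblast (2 higher of 12), macrophage (3 higher of 6), Schwann cell (1 higher of 4), tendon and cartilage (1 higher, 1 lower of 6) and adipocyte lists (1 lower of 8). There was none in the T and NK, neutrophil, skeletal muscle, skin and hair, and cycling lists. The part of these cell types in the lower *Fam180a* count was not tested. Fold changes in AT3 tumors followed transcript length (Spearman correlation of 0.59). With the length and GC trend removed, genes called in AT3 tumors went from 4458 to 2605. The part of transcript length in the marker calls was not tested.

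The markers with the highest r of their list in M/D tumors included *Chad* (r of 0.70), *Krt1* (0.61), *Elf3* (an epithelial transcription factor, 0.53), *Krt17* (0.46), *Notch3* (0.46), *Areg* (amphiregulin, an EGF receptor ligand, 0.42) and *S100a9* (a neutrophil calcium-binding protein, 0.41). In the fibroblast list r ran from −0.37 (*Dpt*) to 0.38 (*Fbln1*), in the macrophage list from −0.32 (*Cd68*) to 0.26 (*Itgam*) and in the cycling list from −0.10 (*Top2a*) to 0.03 (*Mki67*). Without NAM-treated tumor 1 the median r of these lists was −0.26, −0.27 and 0.31, and all 6 cycling markers were above 0. The lowest members of their lists included *Adipoq* (−0.90), *Myh4* (−0.72), *Klrb1c* (−0.68), *Egfl7* (−0.66) and *Cited1* (−0.55). Every endothelial, adipocyte, B cell and skeletal muscle marker had r under 0. Without NAM-treated tumor 1, 3 of 4 B cell markers had r above 0, with a median of 0.29. No endothelial, adipocyte or skeletal muscle marker was then above 0. Of these single markers, those called in M/D tumors were *Chad*, *Krt1*, *Adipoq*, *Myh4* and *Klrb1c*.

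In AT3 tumors the highest members of their lists included *Wnt4* (0.99), *Scx* (scleraxis, a tendon transcription factor, 0.96), *Cd79a* (0.94), *Krt17* (0.85), *Krt10* (0.80), *Egfl7* (0.79) and *Cldn4* (a tight junction protein, 0.76). *Scx* fell by 1.51 on the log2 scale with NAM and had r of 0.99 with group means subtracted, but r of 0.45 in M/D tumors, where it was not called. The lowest members of their lists included *Tek* (−0.92), *Sox10* (−0.91), *Adgre1* (−0.88), *Cilp* (−0.84), *Pdgfrb* (−0.83) and *Cspg4* (−0.81). Most of the AT3 markers named here were called, with *Krt10* and *Cldn4* as exceptions.

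**Figure D4:**
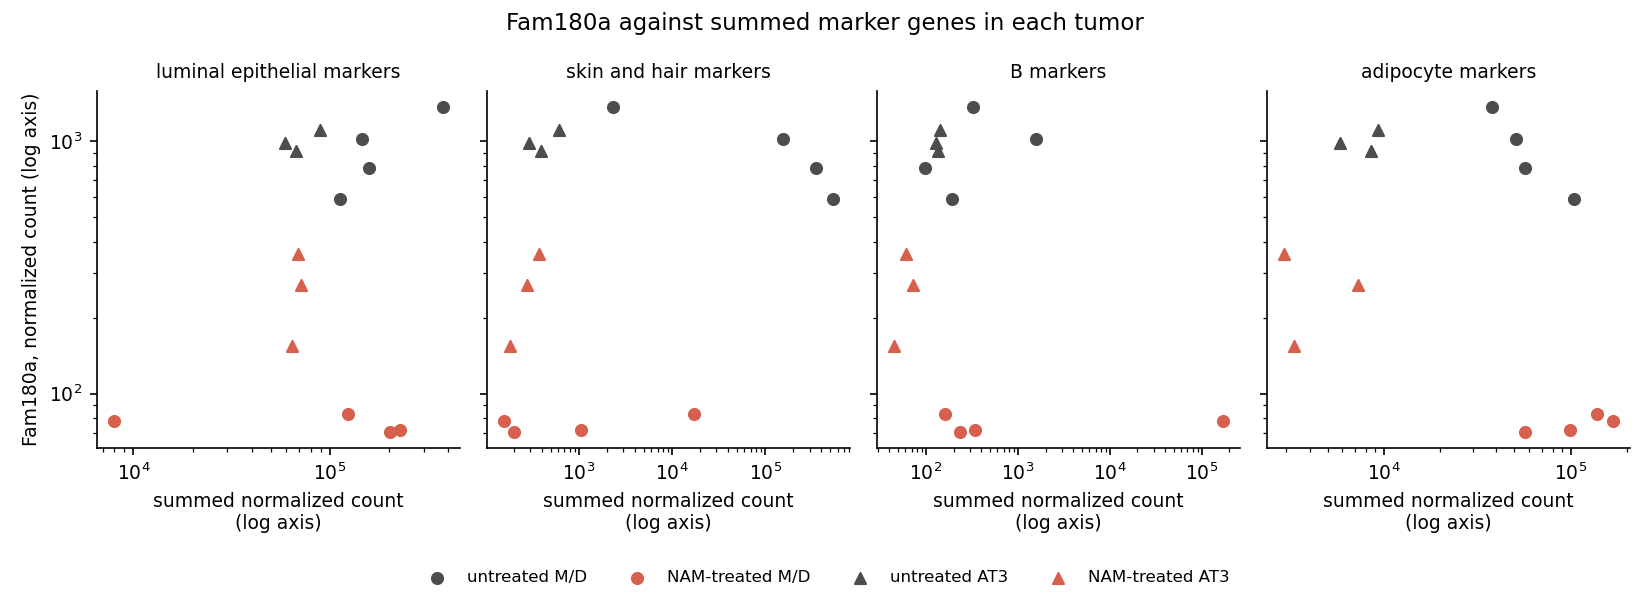
*Fam180a* (normalized count, vertical log axis) against the summed normalized count of 4 marker lists (horizontal log axes) in each tumor. Circles are M/D-driven and triangles AT3 tumors, which were normalized apart, and red marks NAM. The 4 NAM-treated M/D tumors lie on a level line of *Fam180a* between 70.59 and 82.81 while their luminal epithelial sums range from 7920 to 227834.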

How the data were processed

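Bulk RNA-seq of polyA RNA from 14 tumors was used, with groups and replicate numbers taken from the sample labels. The deposited values are a normalized signal, made by the authors by mapping with STAR 2.4.0 on mm10, counting reads on constitutive regions of Mouse FAST DB genes and dividing by DESeq2 size factors, for each model apart. Whether counting used strand is not given in the sources used here. Within each tumor, values came out as whole reads times 1 constant (100% within 0.01). This gave back 40936868 to 84178009 reads per tumor. Errors are those between tumors, each of which came from its own mouse.

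The gene, the marker lists and the tests were chosen with earlier results of these data known. Linear models with a mean-variance trend (limma 3.58.1, R 4.3.3) were fitted to log2(normalized count + 1) where either group of the model averaged 10 or more. A gene was called where its unadjusted p was no higher than 0.05 and its fold change no lower than 1.5. Benjamini-Hochberg adjusted p values were taken over all genes tested. The models were compared on log2 CPM of recovered reads (TMM factors, prior count 1). Scripts were tested on simulated data. Correlations were computed over genes tested in both models, and predicted genes and symbols that join several rows (1556 genes) were left out of these. Named were the 6 nearest tested genes within 1 Mb, the 10 genes with the highest smaller r of both models (also with group means subtracted), the 5 highest in each model, the 5 most negative in both, and of each marker list the called members (up to 4 by fold change, counts for all) and most of the members with the highest or lowest r. Transcript lengths came from GENCODE M21 (84.9% of genes tested in M/D and 85% in AT3 tumors), and sequences from RefSeq. Alternatives were other pseudocounts, filters, scalings and tools (edgeR 4.0.16, DESeq2 1.42.0), a block for replicate numbers, a joint fit of all tumors, and each tumor left out. Some markers are not reported here.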

Additional observations from a re-analysis of the deposited data

How the results depend on the processing

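The *Fam180a* difference in M/D tumors kept its direction in all 18 alternatives (−3.75 to −3.35, also its range with each tumor left out) and in AT3 tumors in all 16, from −2.29 to −1.54. Only the removal of the length and GC trend (chosen after seeing the data) moved it, to −1.54, and leaving out single AT3 tumors gave −2.29 to −1.69. The difference between untreated models did not pass the test in any of 16 alternatives (−0.65 to −0.16). Called genes numbered 1350 in M/D and 4458 in AT3 tumors. They became 2225 in M/D tumors with all 14 tumors in 1 fit, 2095 with DESeq2, 2180 without a filter and 859 with a group mean of at least 50, and 2605 in AT3 tumors with the trend removed. At an adjusted p of at most 0.05, 1 gene was called in each model by limma, against 1457 and 4681 with an unadjusted p no higher than 0.05. Leaving out single tumors gave 784 to 2712 and 1618 to 6765. Neighbours called in M/D tumors (none) became 1 with edgeR (*Akr1b7*, lower) and 1 without a filter (*Gm13857*, higher). In settings added after seeing the data they became 1 with a pseudocount of 0.5 and 1 with upper quartile scaling (*Agbl3*, higher, in both), and 3 with DESeq2, and in AT3 tumors the 3 called became 1 with all 14 tumors in 1 fit (*Cnot4*). Leaving out single tumors gave 0 to 3 in M/D and 0 to 5 in AT3 tumors. The count of 21 genes that follow *Fam180a* became 9 with group means subtracted (none of them among the 21), 0 at r of at least 0.8, and 16 to 159 with single tumors left out.

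Same-numbered tumors deviated from their group means with correlations of −0.44 to 0.11 in M/D and −0.16 to 0.26 in AT3 tumors, so the numbers were not taken to pair them. With the replicate block, 1001 genes were called in M/D and 5082 in AT3 tumors, and the *Fam180a* differences were −3.55 and −2.02. Neighbours called with the block were 0 in M/D and 4 in AT3 tumors, the added gene being *Agbl3*, lower. At 68 to 92 reads per tumor, depth limits what can be said of differences among NAM-treated M/D tumors. A fold change on the log2(normalized count + 1) scale understates that of low genes.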

Other observations

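The 21 genes that followed *Fam180a* in both models were short. Their median transcript length was 1493 bases, against 3315 bases over the 13857 named genes, and that of *Fam180a* is 1606 bases. Fold changes in AT3 tumors followed transcript length as well, and the part of length in the likeness was not tested.

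A window before the start site was found for 14 of these 21 genes. The AP-1 letters TGANTCA were in those of *Asgr1*, *Ndufa5* and *Sdcbp2*, 3 of 14, against 7.82% of 27025 genes. CCAAT, which is not in the window of *Fam180a*, was in 10 of 14, against 37.5% of genes. The E-box letters were in 11 of 14 (69.3% of genes) and GGGCGG in 7 (35.4%). AGAACA was in 5 (18.2%) and TATAAA in 1 (14.3%). These genes were picked by their correlation, so the counts are given as values only.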
